A study of Mus musculus with 16 samples.

Results

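HSCs from endosteal and central bone marrow (BM) were compared between the genotypes as a genotype by compartment interaction, that is the endosteal minus central difference in libraries labelled Gfra2-/- minus the same difference in WT libraries. The table of counts held 46078 genes, and the 15416 genes with enough counts over the 15 libraries were tested with edgeR. Genes with an unadjusted p under 0.05 for the interaction were then described by their fitted compartment differences in log2 units. A difference was called lost where it was at least 1 in WT libraries and under 1 in libraries labelled Gfra2-/-, gained where it was the other way round, and reversed where both were at least 1 with opposite signs. By this rule 370 genes were lost, 93 gained and 511 reversed, and these words name the fitted pattern and not a change past the false discovery rate (FDR), which no gene passed.

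The study asked how HSCs differ in mice with few cholinergic nerve fibres. HSCs were sorted from C57/Bl6 mice, WT or deficient in Gfra2, as lineage-negative Sca1+ cKit+ CD48- CD150+ cells in pools of 30, and each pool gave 1 Smart-seq2 library. The endosteal groups are the bone fraction and the central groups the marrow fraction of the labels. The groups were endosteal WT (4 libraries), central WT (4), endosteal Gfra2-/- (4) and central Gfra2-/- (3). All mice were untreated, the labels give no age and do not say which pools came from the same mouse, and p-values then measure only the spread between these libraries. The mutant lacks Gfra2 in all of its cells, so the HSCs and the nerves of the marrow carry the same genotype. Libraries of a group are lettered A to D in the order of the table.

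HSCs rest in niches of the marrow, where most of them are quiescent, and the lining of the bone (endosteum) and the central marrow around the vessels offer them different signals. GFRα2 is the receptor of neurturin, a ligand of the GDNF family, and signals together with the kinase RET. It is needed for the survival of cholinergic neurons, whose fibres release acetylcholine in the marrow. An interaction shows a gene for which the position of the HSC in the marrow went with another difference in expression in one genotype than in the other.

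Reads counted on genes ranged from 4416648 to 14003634 in endosteal WT libraries, from 826487 to 3367289 in central WT libraries, from 8519094 to 18550008 in endosteal Gfra2-/- libraries and from 7649803 to 14716308 in central ones, so every central WT library was shallower than all others. Between 11951 and 17112 genes were detected per library. Gfra2 had 0, 0, 0 and 1 counts in endosteal WT libraries, 0, 0, 4 and 0 in central WT libraries, 2, 47, 1 and 9 in endosteal libraries labelled Gfra2-/- and 0, 1 and 0 in central ones. Endosteal libraries B and D under that label thus held more raw Gfra2 counts than any WT library, which is why the text speaks of libraries labelled Gfra2-/-. The libraries differ in depth. Central WT library C had its 4 counts among 826487 reads on genes, against 18550008 reads in library B and 11985523 in library D. Relative to its reads, it lay above both. Counts per gene do not show whether the Gfra2 reads of B and D lie in the deleted part of Gfra2. The genes of the sorting gate and of HSCs (Kit, Ly6a, Slamf1, Procr, Ptprc, Mecom, Hlf) had counts in all 15 libraries, with a sum of 1510 to 2651 CPM (counts scaled to the same normalized library total). The 12 markers of granulocytes, their precursors and monocytes summed to 4024 CPM in central WT library D, 2636 in central WT library C and 1648 in central library C labelled Gfra2-/-, against 478 to 996 in the other 12. In the last of these and in central WT library C most of the sum was Lyz2 (1354 and 2438 CPM), a lysozyme of granulocytes and monocytes, while central WT library D had 864 CPM of S100a8 and 667 CPM of Camp. B cell markers summed to 1956 CPM in endosteal library D labelled Gfra2-/-, 423 in central WT library D and 353 in central library C labelled Gfra2-/-, against 11.8 to 117 elsewhere. In bulk libraries, fewer cells of a type and less RNA per cell cannot be told apart.

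No gene of the 15416 passed a 10% FDR for the interaction with edgeR (0 genes, 0% of those tested), and the smallest FDR was 0.523. At an unadjusted p under 0.05 there were 1074 genes, 6.97% of those tested. Of these, 394 had a positive interaction (2.56%), with a larger endosteal minus central difference in libraries labelled Gfra2-/-, and 680 a negative one (4.41%). With DESeq2 size factors in edgeR the split was 508 positive and 575 negative, with counts thinned to the smallest library 308 and 356, and with at least 10 counts in every library 160 and 150. DESeq2's own test gave 729 and 743, and spike-in size factors, which moved the median interaction of all genes from -0.12 to -2.18, gave 192 and 1786. DESeq2 called 243 genes past the FDR, 108 of them positive, of which 124 had a group with 3 counts or fewer in all of its libraries. limma-voom called 0 genes, with 1208 at an unadjusted p under 0.05, and edgeR called 193 with spike-in size factors.

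The lost genes made up 2.4% of those tested, the gained ones 0.603% and the reversed ones 3.31%. Low counts were common among them. Of the 370 lost genes, 120 had a group with 3 counts or fewer in all libraries, as had 45 of the 93 gained and 342 of the 511 reversed genes. With more than 3 counts in some library of every group, 250 genes were lost, 48 gained and 169 reversed. Without endosteal libraries B and D labelled Gfra2-/-, the counts were 231 genes lost, 120 genes gained and 707 genes reversed. The plot of the compartment differences in both genotypes shows these genes.

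**Figure D1:**
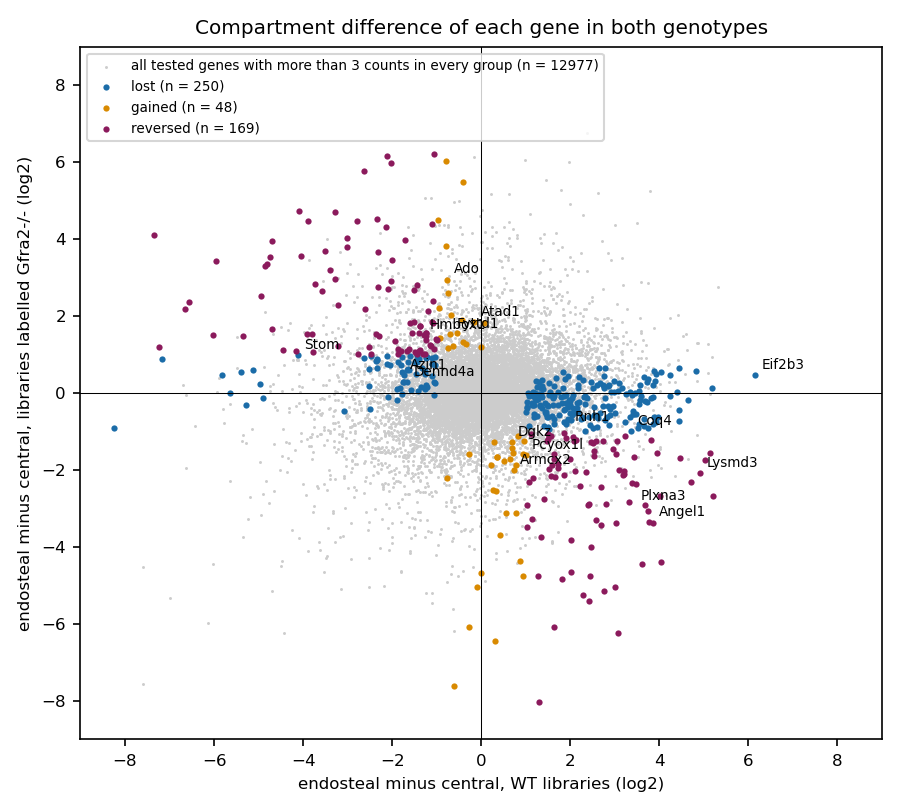
The endosteal minus central difference (log2, edgeR) in WT libraries (horizontal axis) and in libraries labelled Gfra2-/- (vertical axis) is plotted for the 12977 tested genes with more than 3 counts in every group, 1 dot per gene. The 250 lost genes (blue) lie along the horizontal axis, more of them on the right, the 48 gained genes (orange) along the vertical axis and the 169 reversed genes (purple) in the upper left and lower right.

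Of the lost genes, 272 were higher in endosteal than in central WT HSCs and 98 were lower. In all 272 of the former the central WT group had the lowest mean of the 4 groups, and in 80 of the latter it had the highest. The central WT libraries are also the shallow ones, and their depth and their group cannot be told apart. After thinning all libraries to 826487 reads, 283 of the 370 genes could be tested, all 283 kept the sign of the interaction and 224 had an unadjusted p under 0.05. Of all 11360 genes tested after thinning, 664 had such a p. The 370 genes were chosen by their p in the same reads, which in part fixes both the sign and the p.

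Eif2b3 (chromosome 4, 117019402 to 117087306, GRCm38) encodes a subunit of the exchange factor that recharges the translation initiation factor eIF2. It had 46.1, 81.5, 26.4 and 101 CPM in endosteal WT libraries and 0.905, 1.87, 0 and 0.337 CPM in central ones. Under the label Gfra2-/- it had 33.3, 8.18, 25.1 and 45.3 CPM in endosteal and 16.7, 30.3 and 14.0 CPM in central HSCs. The WT groups were far apart and the others overlapped. The compartment difference was 6.15 (SE 0.98) in WT libraries and 0.46 (SE 0.82) in libraries labelled Gfra2-/-, and the interaction was -5.69 (SE 1.21, unadjusted p = 0.000203 from edgeR). The central WT libraries held 1, 6, 0 and 1 counts of this gene, so the size of the WT difference rests on few reads.

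Rnh1, the cytosolic inhibitor of ribonucleases, had more reads, with 21 to 176 counts in central WT libraries. It had 118, 211, 121 and 137 CPM in endosteal and 28.1, 54.7, 28.2 and 43.1 CPM in central WT libraries. Under the label Gfra2-/- it had 189.9, 150.2, 255 and 265 CPM in endosteal and 262, 178 and 326 CPM in central HSCs, all above the central WT libraries. Its difference was 1.91 (SE 0.36) in WT libraries against -0.25 (SE 0.37), and the interaction -2.16 (SE 0.50, unadjusted p = 0.000482 from edgeR).

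Coq4, which acts in the synthesis of coenzyme Q, had 17.1 to 76.8 CPM in endosteal and 0.905 to 9.39 CPM in central WT libraries. The libraries labelled Gfra2-/- had 14.6 to 36.2 CPM in endosteal and 43.3 to 78.6 CPM in central HSCs, so that the groups did not overlap there either, in the other direction. The interaction was -4.36 (SE 1.04, unadjusted p = 0.000569 from edgeR). Counting was without regard to strand, and the span of Coq4 overlaps that of Trub2 on the opposite strand. Strand thus cannot assign reads from a stretch that both genes share. The part of this overlap in the counts was not tested.

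Among the 98 genes lower in endosteal WT HSCs, Azin1 encodes an inhibitor of antizyme and thereby protects ornithine decarboxylase, the first enzyme of polyamine synthesis. It had 31.4, 88.9, 85.2 and 64.3 CPM in endosteal and 369, 179.7, 152 and 202 CPM in central WT libraries. The ranges overlapped in libraries labelled Gfra2-/-, with 92.8 to 200.2 CPM in endosteal and 87.3 to 126.5 CPM in central HSCs. The WT difference was -1.74 (SE 0.41), the other one 0.46 (SE 0.43) and the interaction 2.20 (SE 0.60, unadjusted p = 0.0018 from edgeR). Dennd4a, an activator of Rab GTPases in vesicle transport, went the same way, with 43.5 to 87.8 CPM in endosteal and 112 to 361 CPM in central WT libraries. Its 7 libraries labelled Gfra2-/- lay between 86.3 and 146 CPM in both compartments, and its interaction was 1.95 (SE 0.58, unadjusted p = 0.00389 from edgeR). Stom encodes the membrane protein stomatin. Its highest value was 5.85 CPM in endosteal WT libraries, and central WT libraries had 9.44 to 85.8 CPM. The libraries labelled Gfra2-/- had 23.9 to 97.9 CPM in endosteal and 10.2 to 41.6 CPM in central HSCs. The group that stood apart here was endosteal WT, and the interaction was 5.09 (SE 1.53, unadjusted p = 0.00391 from edgeR).

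**Figure D2:**
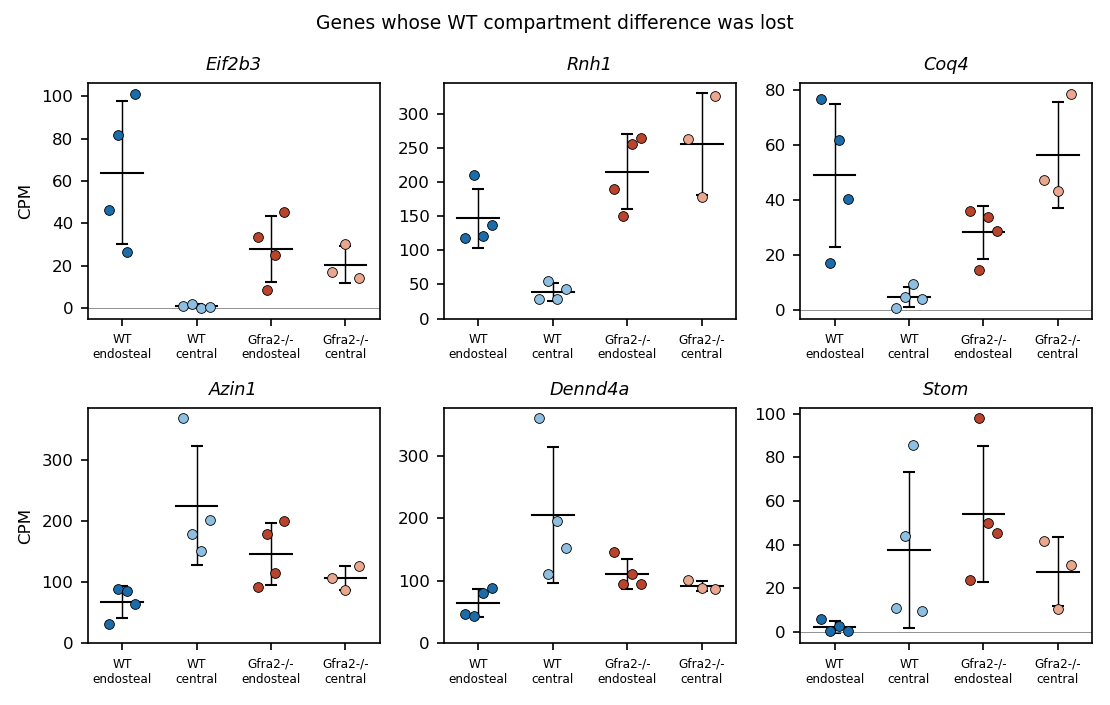
CPM of 6 lost genes, with 1 point per library, the group mean as a horizontal line and the SD as whiskers (n = 4, 4, 4 and 3 libraries). Eif2b3, Rnh1 and Coq4 (upper row) were lowest in central WT libraries, Azin1 and Dennd4a had their highest points there, and Stom was lowest in endosteal WT libraries.

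Of the 93 gained genes, 39 were higher and 54 lower in endosteal than in central HSCs of libraries labelled Gfra2-/-. Thinned to the smallest library, 57 could be tested, with the same sign in 57 and an unadjusted p under 0.05 in 38. As for the lost genes, the choice of the genes in part fixes these counts. Without endosteal library A labelled Gfra2-/- there were 141 genes gained in place of 93.

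Ado (chromosome 10, 67544511 to 67548955), an enzyme that oxidizes cysteamine and N-terminal cysteines with oxygen, had 128, 454, 169 and 209.7 CPM in endosteal libraries A to D labelled Gfra2-/- and 15.9, 38.9 and 38.5 CPM in central ones. In WT libraries it had 40.5, 66.1, 104 and 81.4 CPM in endosteal and 33.5, 33.3, 382 and 53.6 CPM in central HSCs. The endosteal libraries labelled Gfra2-/- stood above all other libraries but central WT library C, which B alone exceeded. The interaction was 3.71 (SE 1.06, unadjusted p = 0.00268 from edgeR), from differences of -0.76 in WT libraries and 2.95 in the others. Without central WT library C, which had the fewest reads, the interaction of Ado was 2.06.

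Fyttd1, an adaptor of mRNA export from the nucleus, had 109 to 217 CPM in endosteal and 23.1 to 68.3 CPM in central libraries labelled Gfra2-/-, and 15.1 to 83.1 CPM in the 8 WT libraries. All 4 endosteal libraries labelled Gfra2-/- were thus above the other 11. Fyttd1 overlaps Rubcn on the opposite strand, and its interaction was 2.24 (SE 0.76, unadjusted p = 0.00924 from edgeR). Atad1, which removes misplaced proteins from the outer membrane of mitochondria, had 98.1 to 228 CPM in endosteal and 21.7 to 59.9 CPM in central libraries labelled Gfra2-/-. Its WT libraries spread from 38.1 to 225 CPM, and its interaction of 1.99 had an unadjusted p of 0.0208 from edgeR. For the interaction of Atad1 this p was 0.05403 without endosteal library D and 0.05875 without central library C of that label.

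In the other direction, the X-linked gene Armcx2 (134804145 to 134809221) had 19.5, 21.6, 47.8 and 18.3 CPM in endosteal libraries labelled Gfra2-/- and 118, 104 and 101 CPM in central ones. Endosteal WT libraries had 146, 75.1, 82.1 and 84.8 CPM and central WT libraries 41.6, 44.8, 44.2 and 101 CPM. The interaction was -2.74 (SE 0.69, unadjusted p = 0.000927 from edgeR), from a difference of 0.73 in WT libraries and -2.01 in the others. Dgkz, which turns the second messenger diacylglycerol into phosphatidic acid, had 69.0 to 178 CPM in endosteal and 236 to 279 CPM in central libraries labelled Gfra2-/-, while WT libraries overlapped between 96.9 and 329 CPM. Pcyox1l had 26.7 to 34.1 CPM in endosteal and 64.6 to 108 CPM in central libraries labelled Gfra2-/-, against 8.09 to 123 CPM in WT libraries. The interactions were -1.97 (SE 0.58) for Dgkz and -2.62 (SE 0.85) for Pcyox1l.

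Reversed genes were the most numerous and had the fewest reads. Of the 511, 288 were higher and 223 lower in endosteal than in central WT HSCs. Their median level over all libraries was 3.17 CPM, against 24.8 CPM for all tested genes, 33.2 CPM for lost and 7.85 CPM for gained genes. In 80.6% of them at least 1 central WT library had 0 counts, against 37.0% of all tested genes. Thinned to the smallest library 179 of the 511 could be tested, with the same sign in 179 and an unadjusted p under 0.05 in 159, which the choice of the genes again in part fixes. Only 5 reversed genes of the first direction and 1 of the second were protein-coding, had a mean of at least 20 CPM, had more than 3 counts in every group and had compartments that did not overlap in either genotype.

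Angel1 (chromosome 12, 86700502 to 86726460), a member of the CCR4 family, had the smallest interaction p of all genes. It had 58.7, 33.9, 27.7 and 32.4 CPM in endosteal and 0.905, 0.311, 8.04 and 2.36 CPM in central WT libraries. In libraries labelled Gfra2-/- the order was the opposite, with 2.77, 10.8, 2.78 and 2.72 CPM in endosteal and 17.0, 13.9 and 118 CPM in central HSCs. The interaction was -7.22 (SE 1.53, unadjusted p = 0.000197 and FDR = 0.523 from edgeR), from differences of 3.85 and -3.37. Its reads in central WT libraries were 1, 1, 6 and 7.

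Plxna3, an X-linked receptor for semaphorins that guide axons, had 48.2, 105, 33.3 and 15.1 CPM in endosteal and 0, 3.42, 14.7 and 2.36 CPM in central WT libraries. In libraries labelled Gfra2-/- it had 25.03, 14.5, 6.25 and 7.80 CPM in endosteal and 75.4, 63.1 and 66.4 CPM in central HSCs. The groups did not overlap in either genotype, though in WT libraries the nearest values were 15.1 and 14.7 CPM. Its interaction was -5.74 (SE 1.37, unadjusted p = 0.000596 from edgeR). Lysmd3, which encodes a membrane protein with a LysM domain, had 9.49 to 62.3 CPM in endosteal and 0 to 4.02 CPM in central WT libraries, and 0.263 to 32.5 against 36.1 to 83.9 CPM in libraries labelled Gfra2-/-. Its interaction was -7.01 (SE 1.83), from differences of 4.92 (SE 1.40) in WT libraries and -2.09 (SE 1.21) in the others. The latter had an unadjusted p of 0.101 from edgeR by itself, and the central WT libraries held 0, 5, 3 and 0 counts of Lysmd3.

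Hmbox1, a homeobox protein that binds telomeres, was the only gene of the other direction that met the rule. It had 8.73 to 23.9 CPM in endosteal and 24.6 to 55.0 CPM in central WT libraries, and 25.1 to 63.0 CPM in endosteal against 2.46 to 20.8 CPM in central libraries labelled Gfra2-/-. The interaction was 2.80 (SE 1.07, unadjusted p = 0.0174 from edgeR). Neither of its differences, -1.29 (SE 0.71) and 1.51 (SE 0.79), had a p under 0.05 by itself.

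**Figure D3:**
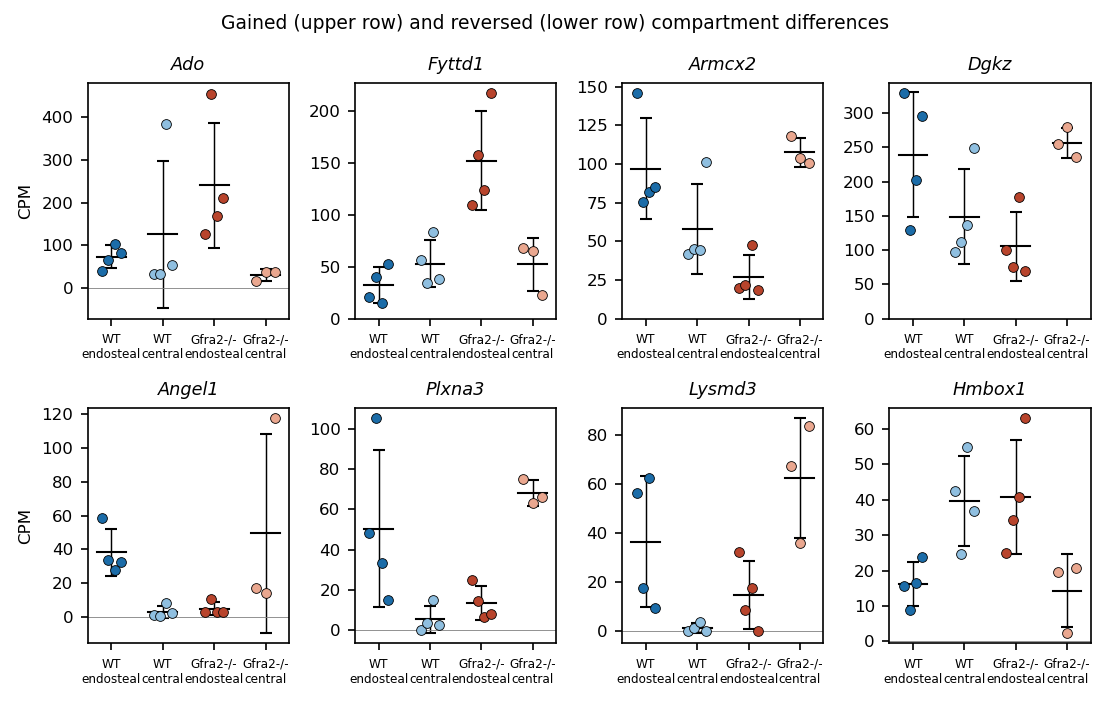
CPM of 4 gained genes (upper row) and 4 reversed genes (lower row), with 1 point per library, the group mean as a horizontal line and the SD as whiskers (n = 4, 4, 4 and 3 libraries). Endosteal libraries labelled Gfra2-/- were highest for Fyttd1 and had the lowest mean for Armcx2, and Angel1, Plxna3 and Lysmd3 were low in central WT and endosteal Gfra2-/- libraries.

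Of the 16 genes described so far, 13 passed a 10% FDR with DESeq2, all but Atad1, Dgkz and Angel1. Over all genes DESeq2 called 243 of 23304. The 16 were chosen by their p and their separation in the same libraries, so this count is no separate test of them. Protein-coding genes made up 75.9% of the lost, 74.2% of the gained and 65.6% of the reversed genes, against 77.5% of all tested genes, and with more than 3 counts in every group 89.2%, 89.6% and 87.0% against 83.1%. The median exonic length was 2.87 kb in lost genes higher in endosteal WT HSCs and 4.66 kb in those lower there, against 3.71 kb in all tested genes. In WT libraries the compartments did not overlap in 55.1% of lost genes and 6.1% of all tested genes, and in libraries labelled Gfra2-/- they did not overlap in 50.5% of gained genes and 7.1% of all, which the choice of the genes in part fixes.

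Gfra2, its relative Gfra1 and their co-receptor Ret were too low for the test. Gfra1 had 138 counts in endosteal library D labelled Gfra2-/- and at most 2 in every other library, and Ret had at most 3 in any. Of the 10 ligands and receptors of the GDNF family, 3 could be tested, with 0 at an unadjusted p under 0.05. Of 26 receptors and enzymes for acetylcholine and receptors for noradrenaline, 7 could be tested. One of these, the nicotinic subunit Chrna10, had an unadjusted p of 0.0425 from edgeR and had 0, 2, 5 and 0 counts in endosteal WT, 3, 0, 2 and 2 in central WT, 0, 0, 17 and 0 in endosteal and 1, 0 and 0 in central libraries labelled Gfra2-/-. For the genes of these lists that were too low for the test, a difference could not be looked for. None of the tested ones passed a 10% FDR.

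Cxcr4, Kit, Myc and Notch1 were described for their role in HSCs, whatever their values. Cxcr4, the receptor that holds HSCs in the marrow through CXCL12, had 2.95 to 8.29 CPM in endosteal and 6.34 to 17.4 CPM in central WT libraries. It had 10.1, 5.55, 11.3 and 19.7 CPM in endosteal and 3.61, 3.31 and 6.93 CPM in central libraries labelled Gfra2-/-. The groups overlapped in both genotypes, and the interaction of 2.62 (SE 1.41) had an unadjusted p of 0.0795 and an FDR of 0.739 from edgeR. The interaction of Cxcr4 passed a 10% FDR with DESeq2, at 2.80. Kit, the receptor of stem cell factor, had 491 to 993 CPM in all 15 libraries and an interaction of -0.06 (SE 0.35). Myc had 119 to 163 CPM in endosteal and 18.03 to 131 CPM in central WT libraries, 198 to 342 and 90.6 to 197 CPM in those labelled Gfra2-/-, and an interaction of -0.27 (SE 0.71). Notch1 had 1.95 to 35.0 and 4.02 to 90.0 CPM in WT libraries, 12.5 to 55.5 and 30.9 to 43.4 CPM in the others, and an interaction of 0.50 (SE 1.43), and the interaction of Notch1 became -1.56 without central WT library D. The sign of the last 3 depended on the library or the scaling.

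The 19 lists of pathway genes were read against the 6.97% of all tested genes with an unadjusted p under 0.05 and their median interaction of -0.12. Of 36 genes of HSC identity, such as Procr, Hlf and Mecom, 0 had such a p and the median interaction was -0.17, or 0.012 with DESeq2 size factors. Of 24 genes of the Notch pathway and 11 of the Myc network, also 0 did. The medians of 0.20 and 0.27 had no stable sign: that of the Notch pathway was -0.28 without central WT library D, and that of the Myc network was -0.59 with limma-voom and -0.51 without central WT library C. Of 25 genes of the RAS-ERK pathway, which acts below RET, 1 did. This was the kinase gene Araf, with 86.6 to 179.7 CPM in the 8 WT libraries. It had 80.4 to 167 CPM in endosteal libraries A to C and 20.6 CPM in library D labelled Gfra2-/-, 111 to 298 CPM in the central ones and an interaction of -1.55 (SE 0.71).

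Among the 30 regulators of quiescence, 2 had a positive interaction at an unadjusted p under 0.05 and 0 a negative one, with a median over the list of 0.18 that was -0.11 without central WT libraries A and C and -0.084 without endosteal libraries B and D labelled Gfra2-/-. Ahr, a transcription factor activated by ligands, had 0 counts in all 4 endosteal WT libraries and 74, 33, 15 and 58 counts in central ones. In endosteal libraries labelled Gfra2-/- it had 2, 141, 235 and 0 counts and in central ones 142, 120 and 13. The WT compartments did not overlap, the others did, and the unadjusted p of the interaction was 0.00177 from edgeR. Smad3, which carries TGF-β signals, had 25.1 to 83.7 CPM in endosteal and 61.2 to 202 CPM in central WT libraries, 51.9 to 212 CPM in endosteal and 80.4 to 95.3 CPM in central libraries labelled Gfra2-/-, and an interaction of 2.06 (SE 0.79). Of the 29 genes of retention and adhesion in the niche, 1 had a p under 0.05. This was Ackr3, an atypical receptor of CXCL12, with 6, 1, 5 and 4 counts in central WT libraries and at most 3 counts elsewhere. The median of that list was -0.34.

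Signalling, stress and metabolic lists had small numbers of members with an unadjusted p under 0.05. Their shares lay on both sides of the 6.97% of all tested genes. These were 9.09% for glycolysis, 4.76% for interferon response, 5.26% for gp130 and JAK-STAT, 5.88% for immediate-early genes and 13% for chaperones. Of 22 glycolysis genes 2 had such a p, both positive. Hk2, a hexokinase, had 22.8 to 79.2 CPM in endosteal and 68.7 to 393 CPM in central WT libraries, 32.7 to 265 and 27.1 to 55.9 CPM in those labelled Gfra2-/-, and an interaction of 3.27 (SE 1.04). Eno2, an enolase, had 0 to 0.733 CPM in endosteal WT libraries and spread from 0 to 69.7 CPM in the others. Of 21 interferon response genes 1 did. Irf1, a transcription factor of that response, had 39.0, 43.4, 57.0 and 146 CPM in endosteal and 108, 198, 184 and 284 CPM in central WT libraries. It had 186, 151, 123 and 294 CPM in endosteal and 68.8, 128 and 81.7 CPM in central libraries labelled Gfra2-/-, and an interaction of 2.46 (SE 0.68, unadjusted p = 0.00213 from edgeR). Of 19 genes of gp130 and JAK-STAT signalling 1 did, Stat3, which overlaps Stat5a on the opposite strand, with an interaction of 1.12 (SE 0.45). Of 17 immediate-early genes, which respond first to a stimulus, 1 did. This was Klf4, with 117 counts in endosteal library C and 30 in central library C labelled Gfra2-/-, 8 and 7 in central WT libraries B and C and at most 1 in the other 11. The median of the immediate-early list was 0.84, above the 0.81 of the upper quartile of all genes, and became -0.024 without the shallowest central WT libraries (A and C), 0.20 without endosteal library C labelled Gfra2-/- and 0.27 without central WT library B.

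Chaperones had 1 positive and 2 negative genes of 23. Canx, a chaperone of the endoplasmic reticulum, had an interaction of 1.02 (SE 0.43), and Xbp1, a transcription factor that raises such chaperones, one of -1.69 (SE 0.68). Xbp1 had 139 to 225 CPM in endosteal and 12.7 to 104 CPM in central WT libraries, which did not overlap, and 123 to 283 CPM in all libraries labelled Gfra2-/-.

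**Figure D4:**
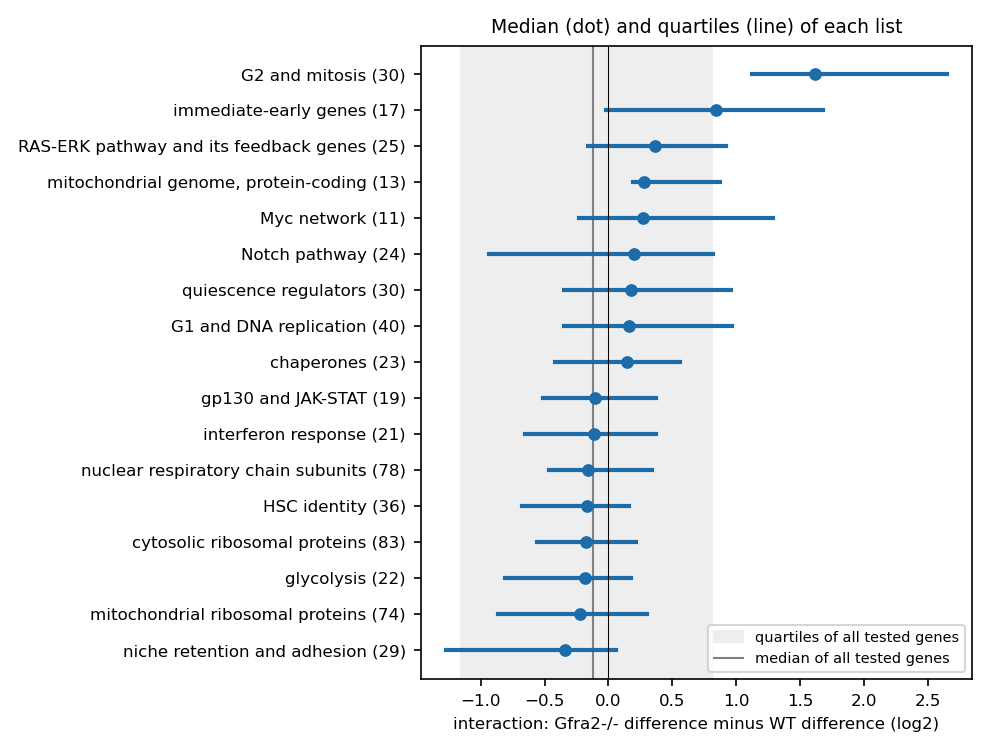
The interaction in log2 units (horizontal axis) is shown for the 17 lists with at least 8 tested members, as the median (dot) and the quartiles (line), with the number of members in parentheses and the quartiles and median of all 15416 tested genes in grey. Only the G2 and mitosis list, with quartiles of 1.12 and 2.65, lies wholly above the grey band, and the 30 members share libraries and are not independent.

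Among the 17 pathway lists with at least 8 tested members, the median of G2 and mitosis lay farthest from that of all tested genes. Of the 30 members, which build and control the spindle and the chromosomes in dividing cells, 29 had a positive interaction, with a median of 1.62 against -0.12 for all tested genes. The median compartment difference was -0.96 in WT libraries, lower in endosteal HSCs, and 0.70 in libraries labelled Gfra2-/-. None of the 30 had an unadjusted p under 0.05 from edgeR (0 genes), the smallest being 0.05003 for Top2a, and with DESeq2 6 did. Summed over the list, the level was 326, 725, 1159.5 and 2355 CPM in endosteal WT libraries and 1325, 1510.1, 2254 and 4636 CPM in central ones. Under the label Gfra2-/- it was 1089, 3299, 945 and 602 CPM in endosteal and 1056, 326 and 1419 CPM in central HSCs. The groups overlapped in both genotypes.

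Single libraries weighed on this list. The highest endosteal library labelled Gfra2-/- was B, the one with 47 counts of Gfra2, and without it the median was 1.10, with 22 of 30 positive. The highest central WT library was D, the one with the most granulocyte markers, and without it the median was 1.22, also with 22 of 30 positive. Without both endosteal libraries with the most Gfra2 reads (B and D) it was 1.06, with 23 positive, and without central WT library D and endosteal library D labelled Gfra2-/- it was 1.39, with 25 positive. With limma-voom it was 2.26, with 24 positive. With a spike-in share under 0.5% as a term of the edgeR fit it was 2.33, with 30 positive and 3 at an unadjusted p under 0.05. In the 11 libraries with at least 0.5% spike-in reads it was 2.98, with 30 positive and 7 at an unadjusted p under 0.05. From the 4 with fewer, 1 per group, the mean values of log2(CPM + 1) gave -1.03, with 10 of 30 positive, so that the direction was not the same there. Their part in the pattern was not tested.

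**Figure D5:**
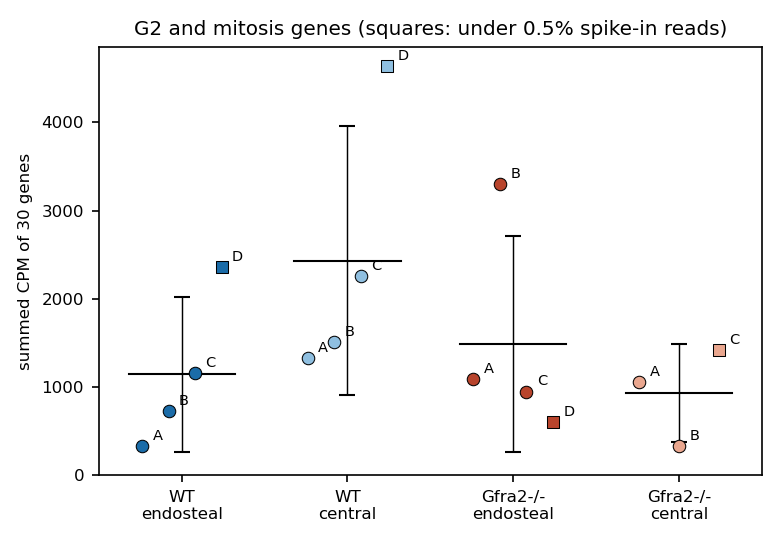
Summed CPM of the 30 G2 and mitosis genes by group, with 1 lettered point per library (squares for those under 0.5% spike-in reads), the group mean as a horizontal line and the SD as whiskers (n = 4, 4, 4 and 3 libraries). Central WT library D (4636 CPM) and endosteal library B labelled Gfra2-/- (3299 CPM) are the 2 highest points, and the groups overlap.

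The 4 members with the smallest p are shown by the bases before their start, as examples of the list with the largest shift in the plot of the list medians. Top2a (topoisomerase IIα, which untangles chromosomes) had an interaction of 1.96 (SE 0.93), Ccnb1 (cyclin B1, which drives entry into mitosis) 3.91 (SE 1.88), Bub1 (a kinase of the spindle checkpoint) 5.04 (SE 2.49) and Cdc20 (an activator of the anaphase-promoting complex) 4.24 (SE 2.12). The 150 bases upstream of the first listed start come from RefSeq (GRCm38.p6), minus strand for all 4, written 5′ to 3′. Capitals mark CCAAT and the letters TTTGAA or TTTAAA, each on either strand.
Top2a (chr11:99024190-99024339): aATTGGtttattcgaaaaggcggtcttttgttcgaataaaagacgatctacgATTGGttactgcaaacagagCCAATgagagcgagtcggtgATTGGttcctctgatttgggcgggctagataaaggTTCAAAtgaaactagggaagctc
Ccnb1 (chr13:100786487-100786636): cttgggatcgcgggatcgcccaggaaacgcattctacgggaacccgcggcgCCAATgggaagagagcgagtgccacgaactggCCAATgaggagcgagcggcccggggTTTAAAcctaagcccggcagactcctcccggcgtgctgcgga
Bub1 (chr2:127831860-127832009): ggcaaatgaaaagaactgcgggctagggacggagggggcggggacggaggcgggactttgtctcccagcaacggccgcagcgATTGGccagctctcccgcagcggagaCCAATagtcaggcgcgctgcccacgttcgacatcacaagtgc
Cdc20 (chr4:118437344-118437493): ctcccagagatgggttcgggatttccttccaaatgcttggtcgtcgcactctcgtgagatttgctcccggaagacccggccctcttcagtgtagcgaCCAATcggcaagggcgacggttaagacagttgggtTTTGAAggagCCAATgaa

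CCAAT was present in all 4 and TTTGAA or TTTAAA in Top2a, Ccnb1 and Cdc20. Over the 250 bases before the start, CCAAT was found in 84.6% of the 26 list members with a promoter in the table, against 36.7% of 9486 tested protein-coding genes, and TTTGAA or TTTAAA in 13 of 26 against 17.5%. These letters are a description of the sequence, and the data hold no measurement of a factor bound there. The 40 genes of G1 and DNA replication did not share the pattern of the mitosis list. Their median was 0.16, 1 had an unadjusted p under 0.05 (Rpa2, a subunit of the protein that coats single-stranded DNA, with 1.32, SE 0.52) and 23 were positive. Without endosteal libraries B and D labelled Gfra2-/- the median was -0.13, with 18 positive and 1 negative member at such a p, and without central library B of that label it was -0.066.

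Genes of translation and respiration had medians within the quartiles of all tested genes (-1.15 and 0.81). An unadjusted p under 0.05 was found in 7.23% of cytosolic and 2.7% of mitochondrial ribosomal proteins. It was found in 5.13% of nuclear respiratory subunits and 7.69% of mitochondrial genome genes, against 6.97% of all tested genes. Negative genes were the more common ones over all tested genes too, at 4.41% against 2.56% positive. In the 4 libraries with under 0.5% spike-in reads, 1 per group, the medians from log2(CPM + 1) were lower, at -0.74 for cytosolic ribosomal proteins (14 of 83 positive), -0.68 for nuclear respiratory subunits (20 of 78) and -0.56 for mitochondrial ribosomal proteins (22 of 74), against -0.19 for all tested genes. Of 83 cytosolic ribosomal protein genes, 6 had an unadjusted p under 0.05, all negative, and the median was -0.18, which became 0.068 without endosteal libraries B and D labelled Gfra2-/-. Rpl4 had 2848, 2886, 3193 and 3360 CPM in endosteal and 1649, 1825, 1841 and 1763 CPM in central WT libraries. All 7 libraries labelled Gfra2-/- were at 2163 to 3052 CPM, and the interaction was -0.83 (SE 0.20, unadjusted p = 0.000766 from edgeR). Rplp0 had 1650.5 to 1860.2 CPM in endosteal and 769.6 to 1113 CPM in central WT libraries, 1251 to 2042 CPM in the 7 others and an interaction of -1.002 (SE 0.25, unadjusted p = 0.000957 from edgeR). Both were lowest in the 4 central WT libraries, without overlap with any other library. Most of the list went the other way in WT libraries. There the median difference was -0.25, and 33 of the 83 genes were higher in endosteal HSCs. Processed pseudogenes can share reads of these genes, so single values are uncertain.

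Of 78 nuclear subunits of the respiratory chain, 4 had an unadjusted p under 0.05, all 4 were negative and lost, and the median over the list was -0.16. This one-sided count depended on the setting, with 5 positive and 5 negative members from DESeq2, 5 and 3 without endosteal WT library A, and 3 and 3 of 69 with at least 10 counts in every library. Ndufs3, a subunit of complex I, had 39.3 to 78.8 CPM in endosteal and 0 to 11.8 CPM in central WT libraries, 35.2 to 53.2 and 29.4 to 75.1 CPM in the others, and an interaction of -3.96 (SE 1.12). It overlaps Kbtbd4 on the opposite strand. Atp5c1, a subunit of ATP synthase, had 234 to 403 CPM in endosteal and 42.9 to 123 CPM in central WT libraries, 248 to 337 and 130.5 to 311 CPM in the others, and an interaction of -1.52 (SE 0.49). Cyc1 and Sdhb were the other two. Of 74 mitochondrial ribosomal proteins, 2 had such a p, both negative. Mrpl4 had 49.7 to 63.2 CPM in endosteal and 3.11 to 13.6 CPM in central WT libraries, against 46.2 to 69.0 and 33.9 to 37.9 CPM in the others, and Mrpl36, which overlaps Ndufs6 on the opposite strand, had an interaction of -1.73 (SE 0.72). Of the 13 protein-coding genes of the mitochondrial genome 1 had such a p. This was mt-Co1, a subunit of complex IV, with 4108 to 7304 CPM in endosteal and 1467 to 2839 CPM in central WT libraries, 4722 to 9552 CPM in the 7 others and an interaction of -1.001 (SE 0.36), while the median of the 13 was 0.28. In each of these genes given with CPM the central WT libraries lay below the endosteal WT ones, and they are the shallow libraries. Their lists did not all share this. The median WT difference was -0.59 over the 13 mitochondrial genome genes, with 2 higher in endosteal HSCs. It was 0.02 over the 78 nuclear subunits, with 42 higher, and 0.33 over the 74 mitochondrial ribosomal proteins, with 53 higher.

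Some markers of granulocytes and of B cells were high in few libraries. Of 12 granulocyte and monocyte markers 6 could be tested, and 3 of these were positive and 1 negative at an unadjusted p under 0.05. The 3 were Camp, S100a8 and Ngp, proteins of neutrophil granules and cytosol. Central WT library D had 667, 864 and 389 CPM of them, and the highest value in any other library was 4.66 CPM. Of the 4 genes of granulocyte precursors on the list, Elane and Ctsg had counts in 1 library each, Mpo in 5 with at most 7.89 CPM, and Prtn3 in all 15 with 67.7 to 418 CPM. Of 8 B cell markers 7 could be tested, with 2 positive, Pax5 and Ms4a1. Pax5 had 129 CPM in central WT library D and 18.6 CPM in endosteal library D labelled Gfra2-/-, and at most 1.16 CPM elsewhere. Of 6 megakaryocyte markers 1 was positive and 2 negative, and of 3 tested endothelial markers 1 was negative, while the defining endothelial marker Cdh5 had no counts in any library. In these short lists, an unadjusted p under 0.05 was found in 66.7% of tested granulocyte and monocyte markers and 28.6% of B cell markers. It was found in 50% of megakaryocyte and 33.3% of endothelial markers, against 6.97% of all tested genes. None of 7 tested erythroid, 3 stromal, 1 T and NK cell marker and 2 genes from outside the gate (Cd48, Flt3) had such a p (0 genes), though erythroid markers summed to 683 CPM in endosteal library D labelled Gfra2-/- and 30.9 to 143 CPM elsewhere. Of the 7 genes of the HSC gate 0 had an unadjusted p under 0.05, with a median of -0.22. Without central WT library D and endosteal library D labelled Gfra2-/-, edgeR called 0 genes at a 10% FDR and 1156 at an unadjusted p under 0.05, of which 718 were among the 1074, with 520 genes lost, 80 genes gained and 484 genes reversed. The part of these markers in the other results was not tested.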

How the data were processed

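The authors aligned the reads to the mouse genome (GRCm38, mm10) with GSNAP and counted reads per gene with htseq-count (HTSeq 0.5.3p3) without regard to strand, per the labels and the methods of the study. They deposited these raw counts for 46078 genes, 92 spike-in RNAs and 5 summary categories, which stayed out of library totals. Columns carry library codes and were tied to groups, not to single samples, by the library list in the study's supplement. A further column (1) without a place in that list was left out.

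Genes were filtered with filterByExpr, normalized with TMM and tested with the quasi-likelihood test of edgeR 4.0.16 (R 4.3.3), with 1 mean for each of the 4 groups over all 15 libraries and Benjamini-Hochberg adjustment. The SE is the interaction divided by the root of the F statistic. DESeq2 1.42.0 and limma 3.58.1 were alternatives. CPM are counts scaled by the TMM-normalized library totals. The steps were tested on simulated data. Symbols, positions and exons came from GENCODE M21.

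Genes were named by a rule: for each class and direction the 3 protein-coding genes with the smallest p, a mean of at least 20 CPM, more than 3 counts in some library of every group and compartments that do not overlap where the class has a difference, and up to 2 members of each list with the smallest p under 0.05. Gfra2, Gfra1, Ret, Notch1, Myc, Cxcr4 and Kit were named in any case. The genes of the other cell types, the promoters and the members of G2 and mitosis shown with them were named after their values were seen. Members and lists were chosen with earlier results of these data known. Counts are PCR reads without molecular identifiers, so depth limits the counting error only.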

Additional observations from a re-analysis of the deposited data

Results flagged for a closer look

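In each group of 4 libraries, the highest or lowest value of log2(CPM + 1) was set against the others by Dixon's test at the 95% level, over the fitted named genes and the summed lists, 171 groups in all. Chance alone marks about 1 in 20 such groups, and 9 were marked. Among single genes, Atad1 was high in endosteal library D labelled Gfra2-/- (228 CPM), Armcx2 in central WT library D (101 CPM) and in endosteal library C labelled Gfra2-/- (47.8 CPM), and Angel1 in endosteal library B of that label (10.8 CPM). Chrna10 (1.97 CPM) and Klf4 (13.5 CPM) were high in endosteal library C labelled Gfra2-/-. Of the lists, the Notch pathway stood apart in endosteal WT library A (summed level 1760 CPM) and central WT library C (1060 CPM), and the mitochondrial ribosomal proteins in endosteal library A labelled Gfra2-/- (3590 CPM).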

How the results depend on the processing

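No paired analysis was possible because the library codes in the table are tied to groups and not to replicate numbers. The count of genes at a 10% FDR was 0 in all edgeR settings but spike-in size factors (193 genes), and 243 with DESeq2. At an unadjusted p under 0.05 it was 1978 with spike-in size factors, 1911 without a filter, 310 with at least 10 counts in every library and 664 with thinned counts, against 1074, and 1006 to 1225 with 1 library left out. The genes lost numbered 580 with DESeq2, 157 with at least 10 counts in every library, 231 without endosteal libraries B and D labelled Gfra2-/- and 254 to 549 with 1 library left out. The genes gained numbered 58 with a 1.5-fold limit, 179 with DESeq2, 48 with more than 3 counts in every group, 49 with at least 10 counts in every library and 66 to 141 with 1 library left out. The genes reversed numbered 238 with thinned counts, 169 with more than 3 counts in every group, 1319 with spike-in size factors, 1309 without a filter, 37 with at least 10 counts in every library and 462 to 730 with 1 library left out. Fewer genes are tested under the stricter filters and thinning. The cause of the other shifts was not tested.

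Notch1, Myc, Cxcr4 and Kit aside, the 40 fitted genes were chosen by their p in these same libraries. That choice in part fixes how many values keep their direction. Of 1053 values of the 40 genes under the alternatives, 1037 kept their direction. The exceptions were the interaction of Notch1, at -0.47 with limma-voom, -0.52 in the 11 libraries richer in spike-in, -1.30 without central WT library D and endosteal library D labelled Gfra2-/-, and -1.56 without the former alone. The interaction of Myc was 0.058 without central WT library B and 0.019 without the same pair. The interaction of Kit was 0.091 with DESeq2, 0.090 with its size factors, 0.82 with spike-in size factors relative to the median of all genes, 0.032 with thinned counts and 0.11 without central WT libraries A and C, which had the fewest reads on genes. The study set its own limit on uniquely mappable reads, which were not counted here. With 1 library left out, Notch1 ranged from -1.56 to 1.21, Myc from -0.84 to 0.058 and Kit from -0.26 to 0.073. The spike-in size factors are given relative to their median of all genes, -2.18, and before that 5 of the 40 changed sign. The median of the G2 and mitosis list was 2.98 in these 11 libraries and 1.10 to 2.63 with 1 library left out. The median of HSC identity was 0.011 with DESeq2 and 0.012 with its size factors, that of nuclear respiratory subunits 0.032 with thinned counts, that of immediate-early genes -0.024 without central WT libraries A and C, and that of ribosomal proteins 0.068 without endosteal libraries B and D labelled Gfra2-/- and -0.32 to 0.011 with 1 library left out. The alternatives that leave out the pair of libraries with markers of other blood cells, thin the classes or require more than 3 counts, and those of the list medians, were chosen after seeing the data. The medians of the chaperone, gp130 and JAK-STAT, interferon and glycolysis lists also changed sign under 1 or more alternatives. Reads of 826487 to 3367289 limit what the central WT libraries can show for low genes.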
